A study of Mus musculus with 7 samples.

Results

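The genes described are the cadherins and nonclustered protocadherins of the mouse, taken as every row of the gene list whose symbol is Cdh followed by digits, Pcdh followed by digits, or Pcdh11x. The rule found 35 of 32285 genes, and it used no measured value. They comprise 5 type I classical cadherins (Cdh1, Cdh2, Cdh3, Cdh4, Cdh15), 13 type II classical cadherins, 4 delta-1 protocadherins (Pcdh1, Pcdh7, Pcdh9, Pcdh11x), 5 delta-2 protocadherins (Pcdh8, Pcdh10, Pcdh17, Pcdh18, Pcdh19) and Pcdh12 and Pcdh20. The symbol rule also took in 6 genes that are not classical cadherins: Cdh13, which is anchored to the membrane by a lipid, Cdh16, Cdh17, Cdh23, Cdh26 and Pcdh15. The clustered protocadherins, whose symbols carry a letter before the digits, were not members.

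The study took nuclei from the posterolateral cortical amygdala (plCoA), an olfactory area of the amygdala, of male C57BL6J mice aged 8 weeks, and set its anterior domain (aplCoA) against its posterior domain (pplCoA). Each domain had 3 replicates, each a pool of tissue from several mice, and both domains came from wild-type animals that were housed singly and kept in sensory deprivation before the tissue was taken. RNA of sorted nuclei was read by droplet sequencing of transcript 3' ends, in 7 libraries, with 2 libraries for aplCoA replicate 1, which were summed. Single animals could not be told apart within a pool, and p-values therefore measure the spread between pools.

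Classical cadherins bind the same or a related cadherin on a neighbouring cell through their outer domains and are tied inside the cell to actin by catenins. Nonclustered protocadherins also bind like to like, but their inner parts bind other partners, among them the WAVE complex that drives actin assembly for part of the delta group. In the brain, cells that share a cadherin combination tend to adhere, and such combinations are known for marking nuclei, layers and axon tracts of the amygdala and cortex.

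Of 52201 barcodes with at least 1000 genes, 46403 nuclei were kept, with a median of 6174 unique molecules (UMIs) per nucleus and replicate medians from 5158 to 6754. Single libraries held 50812605 to 129624583 UMIs in all, and no pair of libraries shared more than 37 of the barcodes with at least 1000 genes. Clusters made without any of the members were named from markers that include no member. They are astrocyte-like, microglia-like and so on by those markers, written here without the suffix: 20021 glutamatergic and 5056 GABAergic neurons, 9742 astrocytes, 3639 oligodendrocyte precursors (OPCs), 303 newly formed (NFOLs) and 1530 mature oligodendrocytes (MOLs), 2798 microglia, 1847 vascular leptomeningeal cells (VLMCs) and 1046 arachnoid barrier cells (ABCs). The naming rule itself required at least 3 of a class's own markers in 5% or more of a cluster's nuclei. Levels are CPM, the gene's UMIs per 1000000 UMIs of the class, per replicate. In some classes another class's marker list summed higher than their own. In VLMCs the astrocyte list summed to 2800 CPM and their own to 1906 CPM. The OPC list summed to 11626 CPM in NFOLs (own 8833) and to 1193 CPM in glutamatergic neurons (own 543). Because reads in introns were counted and members span from 4.54 to 1550.4 kb, genes of a class are ranked only after division by gene span (CPM per 100 kb). Sums and counts over members use plain CPM, from which span was not removed. In a class of nuclei, less RNA per nucleus and a smaller share of expressing nuclei give the same CPM and cannot be told apart by it.

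Among these 9 classes the summed level of the members was highest in the oligodendrocyte lineage and lowest in microglia and VLMCs. Summed over the 35 members, the level was highest in MOLs at 21363 ± 1987 CPM (SD, n = 6 replicates) and in OPCs at 17832 ± 902 CPM. Pcdh9 alone gave 17980 CPM of the sum in MOLs and 6828 CPM of that in OPCs. The rank of MOLs therefore rests on this gene. Glutamatergic neurons held 8735 ± 348, GABAergic neurons 8511 ± 374 and astrocytes 8879 ± 624 CPM, which differed by less than their spread. Of these classes microglia and VLMCs were lowest, at 643 ± 164 and 909 ± 117 CPM. Levels of at least 100 CPM were reached by 13 members in glutamatergic neurons, 16 in GABAergic neurons, 11 in astrocytes, 14 in OPCs, 6 in ABCs and 1 in microglia. 5 members, Cdh15, Cdh16, Cdh17, Cdh26 and Pcdh12, stayed under 2 CPM in all 9 classes.

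**Figure D1:**
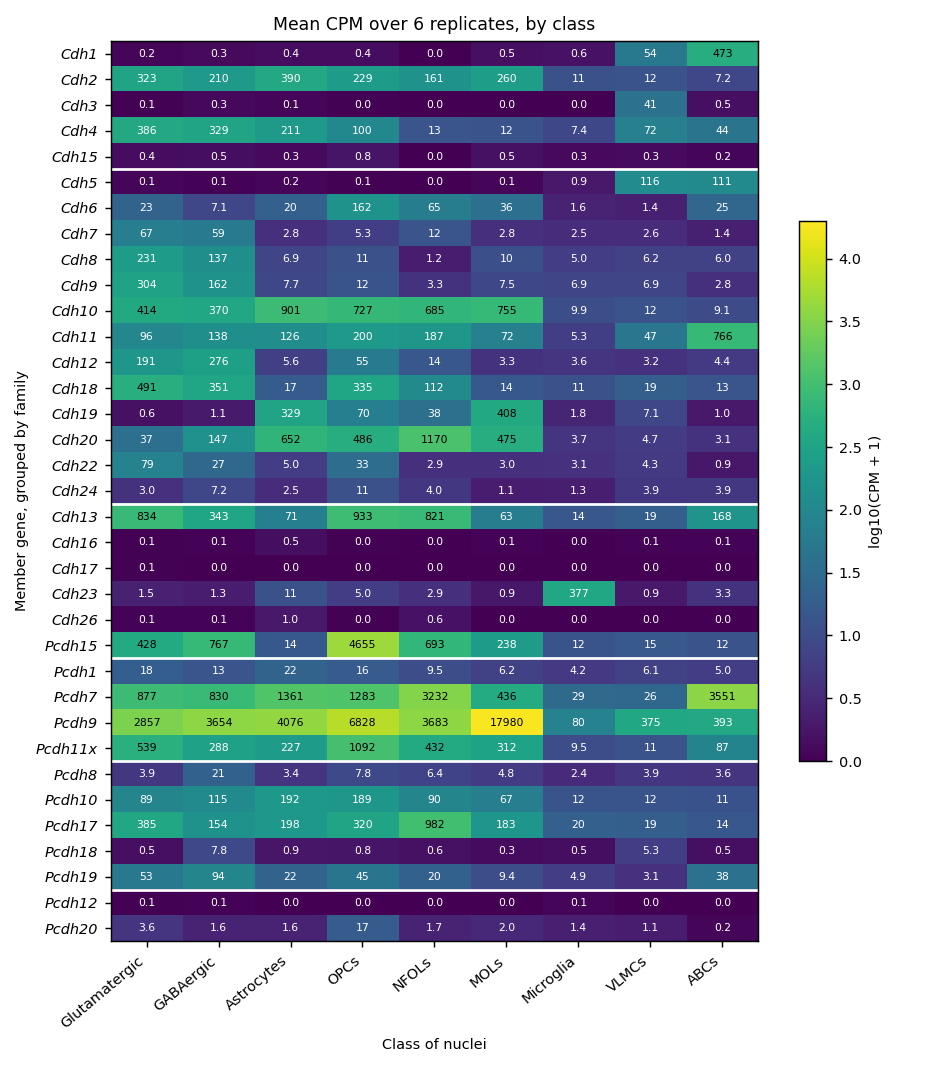
Mean CPM over the 6 replicates (number and colour, on a log10 scale after adding 1) for each member gene (rows, grouped by family between white lines) in 9 classes of nuclei (columns). Values are not divided by gene span. Pcdh9 reaches 17980 CPM in MOLs, and single bright cells outside the neurons mark Cdh23 in microglia, Pcdh15 in OPCs and Cdh1 in ABCs.

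Per 100 kb of gene, another member led in most classes. Pcdh17 was highest in glutamatergic neurons (403 CPM per 100 kb) and NFOLs (1029), Pcdh8 in GABAergic neurons (453), Pcdh7 in ABCs (855), Cdh5 in VLMCs (271) and Cdh23 in microglia (95.9). Pcdh9 led in astrocytes, OPCs and MOLs (465, 778 and 2049.5 CPM per 100 kb), although Cdh10 was close to it in astrocytes (461). Division by span favours short genes such as Pcdh8, whose plain level in GABAergic neurons was 20.6 ± 2.93 CPM.

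The delta-1 protocadherins were read in every class. Pcdh9 was found in 98.9% of glutamatergic nuclei, and its plain level was 2857 ± 255 CPM there, 3654 ± 399 in GABAergic neurons, 4076 ± 336 in astrocytes, 6828 ± 375 in OPCs and 17980 ± 1706 in MOLs. In microglia it was 80.0 ± 35.2 CPM. Pcdh7 was highest in ABCs (3551 ± 705 CPM) and NFOLs (3232 ± 405 CPM), which differed by less than the spread between replicates, and lowest in VLMCs (26.2 ± 9.99 CPM). It stood between them in astrocytes (1361 ± 115 CPM), glutamatergic neurons (877 ± 84.8 CPM) and GABAergic neurons (829.6 ± 75.9 CPM). Pcdh11x, an X-linked member, reached 1092 ± 34.3 CPM in OPCs and 539 ± 152 CPM in glutamatergic neurons. Of the delta-2 members, Pcdh17 had its highest level in NFOLs, with 662, 1043, 1100.3, 794, 1677 and 615 CPM in the 6 replicates, against 385 ± 62.7 CPM in glutamatergic neurons. Pcdh10 was at 192 ± 6.98 CPM in astrocytes and 189 ± 14.3 in OPCs, and Pcdh19 at 93.9 ± 6.70 CPM in GABAergic neurons.

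Among type I cadherins, Cdh2 (N-cadherin) and Cdh4 (R-cadherin) were at 323 ± 26.6 and 386 ± 64.0 CPM in glutamatergic neurons. Cdh2 was at 389.5 ± 27.1 CPM in astrocytes. Cdh4 was at 211 ± 90.8 CPM in astrocytes, 100.1 ± 12.6 in OPCs, 12.7 ± 9.23 in NFOLs and 11.6 ± 7.37 in MOLs. Cdh1 (E-cadherin), the adhesion molecule of epithelia, stood at 473 ± 103 CPM in ABCs, 53.5 ± 20.4 in VLMCs and 0.154 in glutamatergic neurons. Cdh3 (P-cadherin) was seen with 250 UMIs in VLMCs, at 37.3, 25.0, 31.5, 40.1, 45.5 and 67.3 CPM in the 6 replicates, and with 3 UMIs in ABCs. Cdh3 (chr8:106510891-106557297, GRCm38) and Cdh1 (chr8:106603351-106670246), neighbours on the chromosome, thus had their highest levels in different meningeal classes.

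Type II cadherins differed in the class where each was highest. Cdh7, Cdh8, Cdh9, Cdh12, Cdh18 and Cdh22 were higher in glutamatergic or GABAergic neurons than in any of the 7 other classes. Cdh9 had 304 and 162 CPM in the neuron classes and at most 12.1 CPM elsewhere, and Cdh8 had 231 and 137 CPM against at most 10.8. Cdh19 ran the other way, at 408 ± 68.9 CPM in MOLs and 329 ± 67.2 in astrocytes and 0.571 in glutamatergic neurons. Cdh20 peaked in NFOLs (1170.0 ± 153 CPM), followed by astrocytes (652 ± 52.9 CPM). Cdh10 was found in glia and neurons alike, at 901 ± 74.3 CPM in astrocytes, 755 ± 89.1 in MOLs and 414 ± 33.7 in glutamatergic neurons. Cdh6 was highest in OPCs, at 162 ± 10.8 CPM, and Cdh11 in ABCs, at 766 ± 125 CPM. Cdh5 (VE-cadherin), which seals endothelial junctions, was read at 116 ± 9.94 CPM in VLMCs and 111 ± 10.0 CPM in ABCs. The endothelial list held 5 markers. Nuclei with at least 8 UMIs of that list, and more than of Slc17a6, Slc17a7, Gad1, Gad2 and Slc32a1 together, had been moved to an endothelial class. That class held 30 nuclei, of which 18 came from the GABAergic and 8 from the VLMC class. The counts that follow were therefore limited in part by this rule. Cldn5, Adgrl4, Pecam1, Tek and Flt1 had 2, 2, 23, 24 and 1303 UMIs in VLMCs and 1, 0, 18, 70 and 2 in ABCs. The summed level of that list ranged over replicates from 170.3 to 265 CPM in VLMCs, nearly all from Flt1 (199 CPM), and from 5.31 to 38.0 CPM in ABCs, mostly from Tek (20.4 CPM).

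Among the members that are not classical, Cdh23 and Pcdh15, which together form the tip link of hair cells, were found in different cells. Cdh23 stood at 392, 318, 419, 449, 371 and 315 CPM in the 6 microglial replicates and at no more than 10.8 CPM in the 8 other classes. Pcdh15 was at 4138, 4779, 4762, 4750.4, 4735 and 4768 CPM in OPCs, found in 99.9% of those nuclei, and at 11.9 CPM in microglia. Every OPC replicate lay above every replicate of the other 8 classes for Pcdh15, as every microglial replicate did for Cdh23. Cdh13 (T-cadherin) was high in OPCs (933 ± 75.1 CPM), glutamatergic neurons (834 ± 428) and NFOLs (821 ± 139), with the widest spread in the glutamatergic neurons.

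Glutamatergic and GABAergic neurons of the same pools were compared by edgeR's quasi-likelihood test with the pool as a block. Of the 35 members, 22 were seen in at least 5% of nuclei and could be tested, and 21 passed an adjusted p under 0.05, against 70.9% of all 11418 genes tested. Cdh6 was in under 5% of GABAergic nuclei and so entered through glutamatergic neurons alone, where it read 10.7 to 35.5 CPM against 4.4 to 10.7 CPM. Of the 21 members in at least 5% of nuclei of both classes, 13 were higher in glutamatergic and 7 in GABAergic neurons, where 69.8% of all such genes passed. Their median log2 difference was 0.35, and that of all such genes -0.05. Cdh22, whose levels were 94.5, 89.3 and 70.6 CPM in aplCoA and 82.9, 78.8 and 58.0 CPM in pplCoA for glutamatergic neurons, stood at 32.2, 30.3 and 25.4 in aplCoA and 31.6, 25.7 and 18.6 in pplCoA for GABAergic neurons, a log2 difference of 1.71 ± 0.05 (SE; adjusted p = 9.05e-09). The lowest glutamatergic replicate of Cdh22 was above the highest GABAergic one. Pcdh17 (1.48 ± 0.06), Cdh13 (1.31 ± 0.20), Cdh9 (1.06 ± 0.20) and Pcdh11x (1.03 ± 0.14) were also higher in glutamatergic neurons. So were Cdh8 (0.94 ± 0.10), Cdh2 (0.80 ± 0.03) and Pcdh1 (0.71 ± 0.08). Pcdh8 (-2.19 ± 0.08, adjusted p = 4.02e-08) and Cdh20 (-1.98 ± 0.26, adjusted p = 0.000126) were higher in GABAergic neurons, in 6 of 6 replicates each, as was Pcdh15 (-0.77 ± 0.18). Members of one family differed in direction: of the delta-2 genes, Pcdh17 was higher and Pcdh8 and Pcdh19 (-0.65) were lower in glutamatergic neurons.

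Between the ends of the oligodendrocyte lineage, Pcdh15 and Cdh13 were far higher in OPCs and Cdh19 was higher in MOLs. Of 18 members tested between OPCs and MOLs, 16 passed (background 65% of 8212 genes), but 5 of them were in under 5% of MOLs and were tested only through OPCs, where they are high. Among the 13 seen in at least 5% of nuclei of both classes, 8 were higher in OPCs and 3 in MOLs (background 59.3%), with a median log2 difference of 1.36 against -0.11 over all such genes. Pcdh15 had 4138 to 4779 CPM in OPCs and 201 to 278 CPM in MOLs, 17.9-fold apart in the fit (log2 4.16 ± 0.08, adjusted p = 6.13e-28). Cdh13 (3.90 ± 0.12) was also higher in OPCs, without overlap between the classes, followed by Cdh6 (2.03 ± 0.12), Pcdh11x (1.71 ± 0.07), Pcdh7 (1.54 ± 0.10) and Pcdh10 (1.5 ± 0.11). The members that entered through OPCs alone are given as levels. Cdh18 read 313 to 394 CPM in OPCs and 0 to 21.5 in MOLs, and Cdh12 39.0 to 68.8 and 0 to 6.97 CPM. Cdh4 read 84.1 to 118 CPM in OPCs and 0 to 20.1 in MOLs. For Cdh22 the ranges were 29.2 to 36.9 and 0 to 6.44 CPM, and for Pcdh19 40.4 to 48.2 and 0 to 16.1 CPM. The 3 higher in MOLs were Cdh19 (OPCs 62.5 to 78.4 CPM, MOLs 323 to 521 CPM, log2 -2.59 ± 0.09), Pcdh9 (-1.49 ± 0.06) and Cdh2 (-0.30 ± 0.09), of which Cdh2 overlapped between the classes and did not pass by DESeq2, with predicted doublets kept or without aplCoA replicate 3. NFOLs, not part of this test, lay outside the range of both for Pcdh7 (2735 to 3687 CPM, against 1147 to 1411 in OPCs and 279.5 to 675 in MOLs) and Cdh20 (973 to 1374 CPM, against 411 to 533 and 287 to 569). When predicted doublets were kept, Cdh13 was at 2.40 and still passed. The fitted differences of Cdh4, Cdh12, Cdh18, Cdh22 and Pcdh19 were then 0.50, 1.07, 1.87, 1.01 and 1.37 on the log2 scale, against 3.27, 3.37, 4.17, 3.15 and 1.97 without doublets.

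Between the meningeal classes, Pcdh7, Cdh11 and Cdh1 were far higher in ABCs than in VLMCs. Of 10 members tested, 7 passed (background 45.1% of 8470 genes). Among the 8 in at least 5% of nuclei of both classes, 4 were higher in ABCs, which form a barrier of tight cell contacts, and 1, Cdh4, was higher in VLMCs (log2 0.62 ± 0.18, adjusted p = 0.00813), where 40.2% of all such genes passed. Pcdh7 read 3353, 2593, 3007, 4490.3, 4108 and 3753 CPM in the 6 ABC replicates and 43.2, 16.3, 20.6, 30.1, 28.4 and 18.3 CPM in VLMCs, 134-fold apart (log2 -7.07 ± 0.16, adjusted p = 7.11e-18). Cdh11 read 654 to 992 CPM in ABCs and 32.7 to 69.1 in VLMCs (log2 -4.08 ± 0.15), and Cdh1 318 to 632 and 36.2 to 83.4 CPM (log2 -3.30 ± 0.13). For these 3 genes every ABC replicate was above every VLMC replicate. Cdh13 (-3.16 ± 0.31) was also higher in ABCs. Pcdh19 and Pcdh11x were tested only through ABCs, where they are high: Pcdh19 read 28.9 to 53.1 CPM in ABCs and 0 to 7.58 in VLMCs, and Pcdh11x 54.1 to 223 and 5.01 to 23.9 CPM. With predicted doublets kept, the difference of Pcdh7 was -4.36, that of Cdh11 -3.48 and that of Cdh13 -1.46, all of which still passed, whereas Cdh4 was at 0.23 and did not, nor did it without aplCoA replicate 1. Cdh5 was tested and differed by 0.02 ± 0.12 on the log2 scale (adjusted p = 0.926).

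Glutamatergic nuclei were next divided by the vesicular glutamate transporter they carried, Slc17a6 (VGLUT2) or Slc17a7 (VGLUT1): 2584 nuclei had at least 1 Slc17a6 UMI and no Slc17a7 UMI, 12800 the reverse, 2553 had both and 2084 neither. Slc17a6-only nuclei were 21.9%, 15.4% and 16.7% of glutamatergic nuclei in the aplCoA replicates and 6.02%, 1.64% and 1.12% in the pplCoA replicates, where they numbered 214, 39 and 25. Their median depth was 9614 UMIs, against 13511 in Slc17a7-only nuclei.

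In the paired test, 8 of 21 members tested were higher in Slc17a6-only and 5 in Slc17a7-only nuclei (background 45.5% of 11578 genes). Cdh6 differed most: it read 70.2, 97.2 and 97.7 CPM in aplCoA and 65.4, 180.2 and 123 CPM in pplCoA for Slc17a6-only nuclei, and 12.0, 9.69 and 7.04 in aplCoA and 7.24, 7.09 and 7.82 in pplCoA for Slc17a7-only nuclei. Its log2 difference was 3.25 ± 0.22 (adjusted p = 3.39e-07), or 9.52-fold, and the lowest Slc17a6-only replicate was above the highest Slc17a7-only one. Cdh18 (log2 1.40 ± 0.14) read 946 to 1493 CPM against 282 to 463, Cdh8 (0.98 ± 0.13) 319 to 727 against 127 to 255, and Pcdh7 (0.66 ± 0.10) 1156 to 1469 against 652 to 911, all without overlap. Pcdh19 was higher by 0.51 ± 0.08, in 5 of 6 pools, and Cdh2 by 0.26 ± 0.07, in 6 of 6.

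The remaining differences were less even across pools. Pcdh15 (log2 1.83 ± 0.30, adjusted p = 0.000356) read 1400.0, 1661 and 1590.1 CPM in aplCoA and 1343, 254 and 459 CPM in pplCoA for Slc17a6-only nuclei and 223 to 286 CPM for Slc17a7-only nuclei. pplCoA replicate 2 thus showed no excess. Cdh20 (1.51 ± 0.14, adjusted p = 4.41e-06) behaved alike, with 110.2, 96.6 and 116 CPM in aplCoA and 96.1, 19 and 19.1 CPM in pplCoA, against 14.4 to 42.7 CPM for Slc17a7-only nuclei. pplCoA replicates 2 and 3 had the fewest Slc17a6-only nuclei. They also held 3 and 4 nuclei of cluster 4, described below and highest for Pcdh15 and Cdh20, against 147 in pplCoA replicate 1. The part of either in these values was not tested. In the other direction, Pcdh17 read 129 to 318 CPM for Slc17a6-only and 356 to 552 for Slc17a7-only nuclei (log2 -1.29 ± 0.15, adjusted p = 1.97e-05), without overlap. Cdh9 (-1.0 ± 0.12) was lower in 6 of 6 pools, while Cdh12 (-1.19 ± 0.29) and Pcdh10 (-0.70 ± 0.17) were lower in 4 of 6. Pcdh10 did not pass without aplCoA replicate 1 or 3, by DESeq2 or the likelihood ratio test, or in pplCoA alone, where its difference was -0.0022. In pplCoA alone Cdh12 (-0.26), Pcdh15 (1.03), Pcdh19 (0.52), Cdh2 (0.35) and Cdh22 did not pass either, and Cdh2 also failed in aplCoA alone. Cdh22 differed by -0.23 ± 0.07 (adjusted p = 0.0244), was lower in 5 of 6 pools, and did not pass when any one aplCoA replicate was left out.

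**Figure D2:**
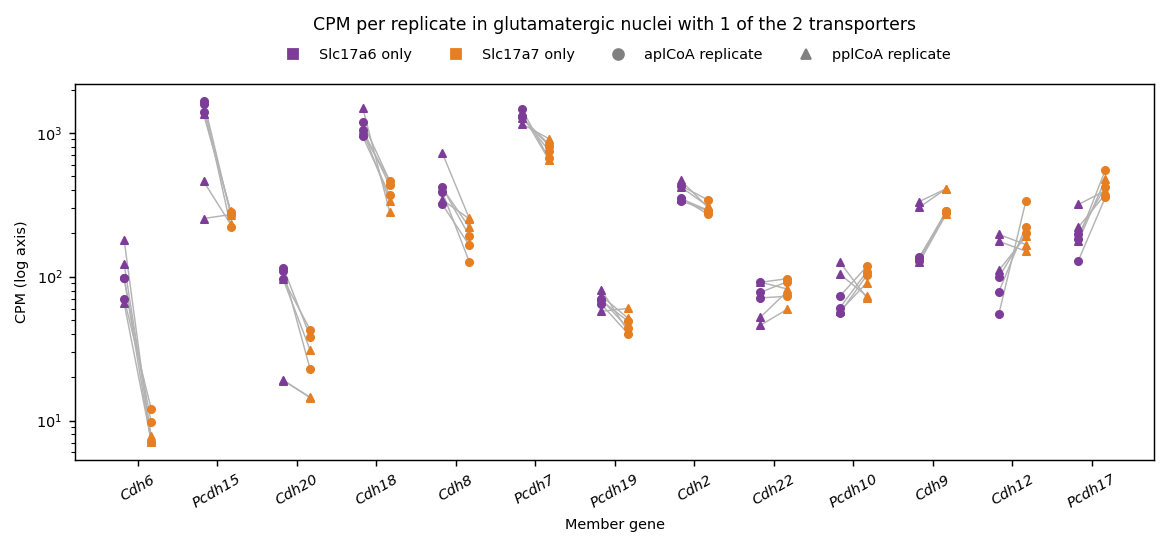
CPM per replicate (log axis) in Slc17a6-only (purple) and Slc17a7-only (orange) glutamatergic nuclei for the 13 members that passed the test, ordered by log2 difference, with a line joining the values of each pool (circles aplCoA, triangles pplCoA). Cdh6 separates the kinds of nuclei in all 6 pools, and the low purple triangles of Pcdh15 and Cdh20 are pplCoA replicates 2 and 3.

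5 type II genes lie within 10.4 Mb of chromosome 15 (Cdh6, Cdh9, Cdh10, Cdh12 and Cdh18, from Cdh6 at chr15:13028701-13173675 to Cdh18 at chr15:22549022-23474418, GRCm38), and they did not change in one direction. Cdh6 and Cdh18, at the ends, were higher in Slc17a6-only nuclei, Cdh9 and Cdh12 were lower, and Cdh10 differed by -0.21 ± 0.12 (adjusted p = 0.179).

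The 250 bases before the RefSeq start of 4 of these genes are shown because Cdh6, Cdh20 and Pcdh15 were the members most enriched in Slc17a6-only nuclei and Pcdh17 the one most depleted. None of the 4 windows overlaps an annotated exon (GENCODE M21), and 3 lie just outside their gene. That of Pcdh15 lies between exons inside the gene, before a start used by shorter transcripts. Capitals mark TGACAG, the core bound by Meis factors, whose genes led a cluster with much Slc17a6, and TATAAA, the core of the TATA box, on either strand, which do not overlap. Bases are from RefSeq, build GRCm38.p6, 5' to 3' on the gene's own strand. The windows are Cdh6 at chr15:13173676-13173925 (minus strand), Cdh20 at chr1:104768270-104768519 (plus), Pcdh15 at chr10:73821617-73821866 (plus) and Pcdh17 at chr14:84443313-84443562 (plus).
Cdh6: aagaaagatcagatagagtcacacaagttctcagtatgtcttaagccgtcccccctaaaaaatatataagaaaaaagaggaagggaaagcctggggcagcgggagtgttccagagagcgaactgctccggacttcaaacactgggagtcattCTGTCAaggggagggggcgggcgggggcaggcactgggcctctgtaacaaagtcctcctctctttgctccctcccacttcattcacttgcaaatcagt
Cdh20: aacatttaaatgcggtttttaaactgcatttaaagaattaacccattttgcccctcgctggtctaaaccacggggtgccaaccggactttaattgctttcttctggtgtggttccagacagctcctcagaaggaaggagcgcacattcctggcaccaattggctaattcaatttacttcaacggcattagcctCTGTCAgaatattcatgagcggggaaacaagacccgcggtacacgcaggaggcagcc
Pcdh15: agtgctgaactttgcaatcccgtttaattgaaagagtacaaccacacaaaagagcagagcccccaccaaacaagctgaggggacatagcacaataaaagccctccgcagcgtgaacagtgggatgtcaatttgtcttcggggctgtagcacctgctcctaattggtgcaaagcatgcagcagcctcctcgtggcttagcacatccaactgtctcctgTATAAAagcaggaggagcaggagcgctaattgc
Pcdh17: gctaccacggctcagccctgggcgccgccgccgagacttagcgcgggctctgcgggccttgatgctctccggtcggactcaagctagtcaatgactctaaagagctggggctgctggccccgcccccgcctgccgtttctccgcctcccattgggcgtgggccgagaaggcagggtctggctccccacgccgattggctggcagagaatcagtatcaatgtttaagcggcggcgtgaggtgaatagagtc

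TGACAG was found in the windows of Cdh6 and Cdh20, 98 and 57 bases before the start, and in 15.9% of all 32851 windows of the same length. Pcdh15 holds TATAAA 33 bases before its start, as 12.4% of windows do, and Pcdh17 holds neither. The search also covered CAGCTG, an E-box (13% of windows), and the core motif of Ebf factors (0.779%). Of the 22 members with a RefSeq window, 4 held TGACAG, 2 TATAAA, 2 CAGCTG and 0 the Ebf core. Matched letters are a description of the windows only.

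A single glutamatergic nucleus carried many members at once. After thinning each nucleus to 5000 UMIs, which left out 968 shallower nuclei, the mean number of members with at least 1 UMI was 10.4, 10.7 and 10.7 in aplCoA and 10.6, 10.5 and 10.2 in pplCoA. The domains overlapped and differed by 0.149 members (exact permutation test, two-sided, p = 0.4, where 3 against 3 can reach no lower than 0.1). The 5th and 95th percentiles of nuclei were 8 and 13 members. Without thinning the mean was 13.5 ± 0.506 (SD, n = 6). Slc17a6-only and Slc17a7-only nuclei held 10.7 ± 0.155 and 10.5 ± 0.179 members, and GABAergic nuclei 8.96 ± 0.127. At 2000 UMIs, which lets glia be set beside them, OPCs held 8.55 ± 0.127 members, glutamatergic neurons 7.08 ± 0.13 and microglia 1.01 ± 0.264. Whether free RNA adds to the microglial value was not tested.

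In thinned glutamatergic nuclei, 19 members were found in at least 10% of nuclei each. Pcdh9 was in 97.9%, Cdh13 in 74.9%, Pcdh15 in 49.5% and Cdh20 in 11.7%. In 451 microglia of the same depth, which serve as background, the same genes were in 26.4%, 4.21%, 4.66% and 0.887%. The 171 pairs of these members were set against what their single shares predict: the observed over expected ratio had a median of 1.00, lay within 10% of 1 for 158 pairs and ran from 0.767 to 1.18. A member found in most nuclei holds this ratio near 1. Of the 36 pairs whose members were both in under 50% of nuclei, 25 lay within 10% of 1, against 133 of the 135 others. Cdh8 with Cdh11 was above expectation in 6 of 6 replicates (ratio 1.1 to 1.25). Cdh8 with Cdh12 (0.714 to 0.891) and Cdh12 with Pcdh19 (0.649 to 0.867) were below it. When the expectation was taken within clusters, the ratio of Cdh8 with Cdh12 was 0.961 and that of Cdh8 with Cdh11 1.09. These ratios describe shares of nuclei with a UMI and carry no test.

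Levels of single members varied widely between glutamatergic clusters. The 14 clusters of at least 100 nuclei, numbered by size, were made without the members. Cdh6 ran from 2.95 CPM in cluster 5 to 510.4 CPM in cluster 13 (216 nuclei, led by Pappa2 and Vwc2l), and was at 122, 70.2 and 47.7 CPM in clusters 14, 4 and 2. Slc17a6 exceeded Slc17a7 in those 4 clusters and in no other, but Cdh6 was also at 64.6 and 21.2 CPM in clusters 12 and 9, where Slc17a7 exceeded Slc17a6. Cluster 13 was also highest for Cdh18 (2548 CPM, 2211 to 2810.0 over its replicates with 20 nuclei), Cdh8 (743 CPM), Cdh11 (259 CPM) and Pcdh7 (2249 CPM). Pcdh15 reached 2086 CPM in cluster 4 (2203 nuclei, led by Ebf1 and Meis1) and 24.5 CPM in cluster 12. Cdh13 reached 2841 CPM in cluster 7 (1500 nuclei, led by Chst9 and Trhr), followed by 931 CPM in cluster 2.

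Cluster 12 (432 nuclei) combined the lowest Cdh11, Cdh12, Cdh13 and Cdh18 of all 14 clusters (18.1, 12.3, 121 and 80.8 CPM) with the highest Pcdh19 (167 CPM) and Pcdh11x (1149 CPM). Cluster 3 paired high Cdh8 (585 CPM) with low Cdh12 (28.0 CPM), and cluster 6 showed the opposite (115 and 382 CPM). Genes leading cluster 12 included Etv1, and those leading cluster 6 included Fign. From atlas images the study placed its Etv1 neurons in the posterior basomedial amygdala, outside plCoA. It held that its Fign neurons likely came from the cortex-amygdala transition area beside aplCoA. Whether these clusters are the same neurons was not tested, and both stayed in the comparison of domains. Cluster 5 had the highest Pcdh17 (664 CPM, 579 to 734 over 6 replicates) and the lowest Cdh8 (75.4 CPM). Cluster 10 led for Pcdh9 (5593 CPM, 5087 to 6185) and cluster 14, whose nuclei had a median of only 3724 UMIs and were led by Ndnf, Trp73 and Reln, for Cdh4 (1281 CPM). The range over clusters was narrowest for Pcdh1 (14.9 to 29.4 CPM) and Cdh2 (148 to 472 CPM) among members with a median of at least 10 CPM.

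**Figure D3:**
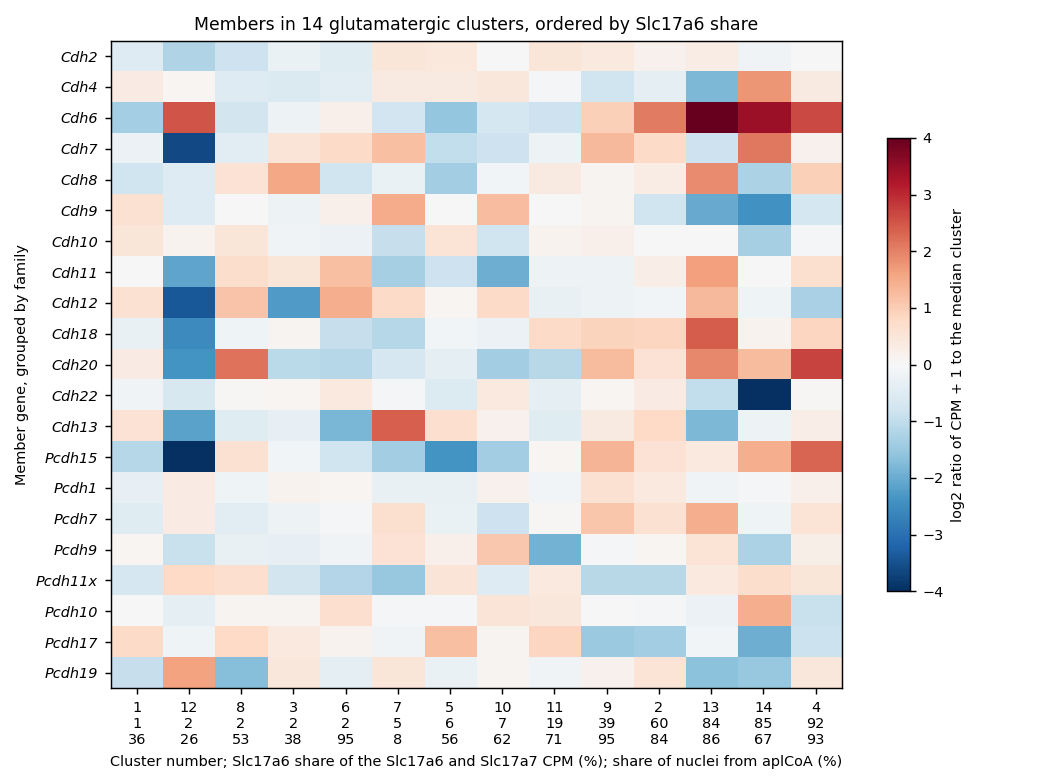
Log2 ratio of each member's CPM (plus 1) to its median over 14 glutamatergic clusters, for members with a median of at least 10 CPM, with clusters ordered by the Slc17a6 share of both transporters. Numbers under a column give the cluster, that share and the share of its nuclei from aplCoA, both in percent. Cdh6 is red in the 4 columns at the right and in clusters 9 and 12, Cdh13 is reddest in cluster 7, and cluster 12 is blue for Cdh7, Cdh11, Cdh12, Cdh18 and Cdh20.

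GABAergic neurons formed 6 clusters of at least 100 nuclei. Cdh13 and Cdh4 were highest in the cluster led by Vip (905 and 486 CPM), Cdh18 in the Adarb2 cluster (696 CPM), and Cdh20 in the Kit cluster (339 CPM). The Kit cluster had the lowest Pcdh7 (156 CPM) and Pcdh15 (90.0 CPM). The Mctp2 cluster had the highest Cdh12 (726 CPM), Pcdh9 (4972 CPM) and Pcdh19 (236 CPM). The Hcrtr2 cluster had the highest Pcdh15 (1931 CPM) and only 4.07 CPM of Cdh18 and 4.07 CPM of Cdh8. Pcdh17, Cdh22 and Pcdh11x were highest in the cluster led by Moxd1 and Sst (220.1, 44.7 and 399 CPM). For Cdh4, Cdh12, Cdh18, Cdh22, Pcdh9 and Pcdh11x the replicates of the highest cluster overlapped those of the next one.

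The study's own question, how anterior and posterior plCoA differ, was then put to the members. Quality measures also set the domains apart. The median mitochondrial share of UMIs over glutamatergic nuclei was 0.0144% to 0.0206% in aplCoA and 0.00825% to 0.011% in pplCoA, and the ribosomal share 0.253% to 0.3% in aplCoA and 0.195% to 0.219% in pplCoA. The domains did not overlap in either measure in glutamatergic neurons, GABAergic neurons, OPCs or MOLs, or in the mitochondrial share in astrocytes, and the part of RNA quality in the domain differences was not tested. In glutamatergic neurons 4 of 22 members tested were higher in aplCoA and 3 in pplCoA (edgeR's quasi-likelihood test, adjusted p under 0.05; background 20.1% of 11714 genes). Their median log2 difference was 0.05, and that of all genes 0.00. Cdh6 read 32.3, 35.5 and 32.6 CPM in aplCoA and 14.2, 10.7 and 11.5 CPM in pplCoA, a log2 difference of 1.37 ± 0.11 (adjusted p = 0.00403). Cdh20 read 47.6, 56.6 and 53.1 CPM in aplCoA and 34.4, 14.3 and 14.5 CPM in pplCoA (1.21 ± 0.30, adjusted p = 0.0238). Pcdh15 read 605, 562 and 552 CPM in aplCoA and 355, 266 and 225 CPM in pplCoA (0.93 ± 0.14, adjusted p = 0.00558). In all 3 the domains were apart, and pplCoA replicate 1 was the pplCoA pool nearest to aplCoA. Cdh11 was higher by 0.38 ± 0.10 (adjusted p = 0.0278). Of the 13 marker lists, 4 had sums in glutamatergic nuclei that did not overlap between the domains. The GABAergic markers summed to 10.3 to 18.4 CPM in aplCoA and 4.03 to 10.2 in pplCoA, and the VLMC markers to 4.43 to 7.27 CPM in aplCoA and 8.55 to 20.4 in pplCoA. The endothelial markers summed to 34.8 to 37.8 CPM in aplCoA and 39.0 to 45.3 in pplCoA, and the mural markers to 13.9 to 16.3 CPM in aplCoA and 16.7 to 21.0 in pplCoA. The part of other cells' RNA in the domain differences was not tested.

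Cdh13 went the other way, at 608, 364 and 574 CPM in aplCoA and 734, 1295 and 1428 CPM in pplCoA (log2 -1.26 ± 0.26, adjusted p = 0.0129), with wide spread in both domains. Cdh9 read 240.1, 258 and 246 CPM in aplCoA and 264, 409 and 408 CPM in pplCoA (-0.63 ± 0.16, adjusted p = 0.027), where pplCoA replicate 1 lay close to aplCoA. Pcdh9 was lower in aplCoA by a small margin (2715, 2609 and 2643 CPM in aplCoA and 2880.1, 3265 and 3029.8 CPM in pplCoA; -0.29 ± 0.08, adjusted p = 0.0394). Cdh18 (0.55 ± 0.17), Cdh4 (-0.39 ± 0.12) and Cdh8 (-0.31 ± 0.10) had adjusted p of 0.0535, 0.0516 and 0.0549. Single pools weighed on the count: it was 3 without aplCoA replicate 1, 3 without aplCoA replicate 2, and 11, 2 and 3 without pplCoA replicates 1, 2 and 3. The calls over all genes moved with it. They were 1002 and 1240 without aplCoA replicates 1 and 2, and 2854, 941 and 1242 without pplCoA replicates 1, 2 and 3, against 2359 of 11714 in the main fit. Cdh6 and Pcdh15 passed whichever replicate was left out, Cdh13 failed without pplCoA replicate 2, Cdh11 failed in 4 of the 6 refits, and Cdh20, Cdh9 and Pcdh9 passed only without pplCoA replicate 1.

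**Figure D4:**
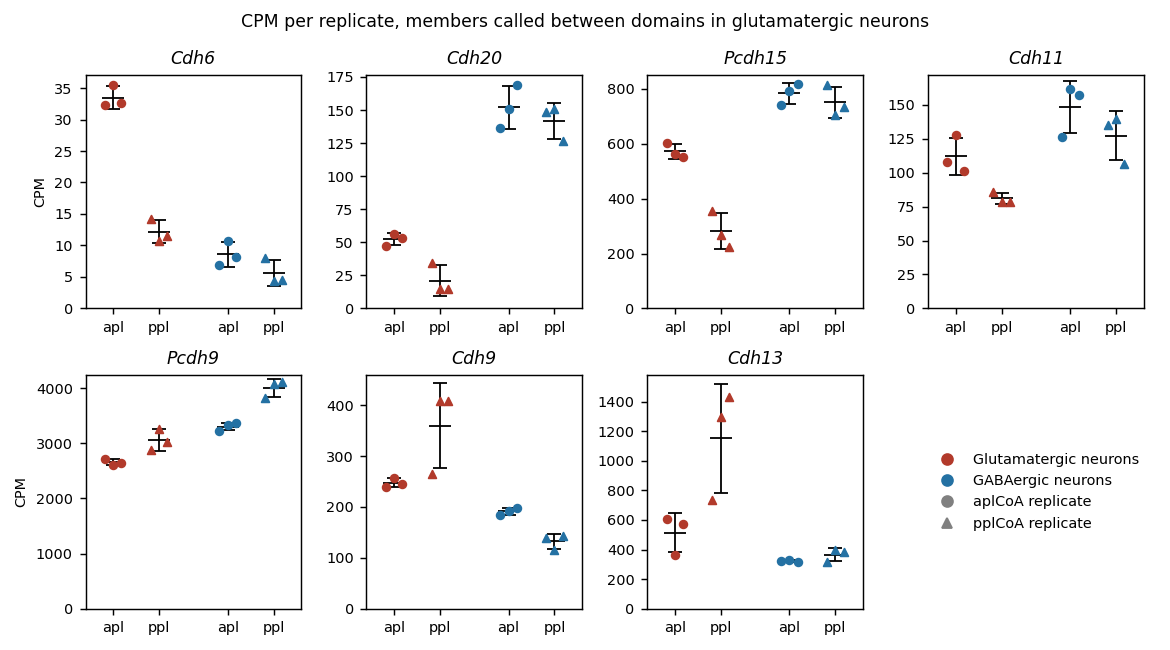
CPM per replicate (points), with mean and SD (black), for the 7 members that differed between aplCoA (circles) and pplCoA (triangles) in glutamatergic neurons (red), beside the same genes in GABAergic neurons (blue). The red groups are apart in all 7 panels, while Cdh9 has its higher blue values in aplCoA and its higher red values in pplCoA.

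The make-up of the glutamatergic neurons also differed between the domains, and its part in the differences over all glutamatergic neurons was not tested. Slc17a6-only nuclei, richer in Cdh6, Cdh20 and Pcdh15, were a larger share of glutamatergic nuclei in aplCoA than in pplCoA. Cluster 7, with the highest Cdh13 and Cdh9, made up 1.56%, 0.0631% and 0.251% of glutamatergic nuclei in aplCoA and 4.87%, 26.8% and 25.7% in pplCoA. Replicates of a domain were also unlike: cluster 6 held 16.6%, 34.0% and 7.43% of the aplCoA nuclei. Among Slc17a7-only nuclei, 4 of 21 members passed (background 8.73%): Cdh13 (-1.38 ± 0.28), Cdh8 (-0.64 ± 0.13) and Pcdh9 (-0.32 ± 0.08) were lower and Pcdh10 (0.43 ± 0.11) was higher in aplCoA. There Cdh6 differed by 0.34 ± 0.18 (adjusted p = 0.282) and Pcdh15 by -0.07 ± 0.11 (adjusted p = 0.736). In Slc17a6-only nuclei, where 2 pplCoA pools had under 40 nuclei, 0 of 21 members passed by edgeR (background 0.736%). There 6 members (28.6%) had an unadjusted p under 0.05, against 13% of all genes. In Slc17a7-only nuclei the mural markers (11.4 to 14.4 CPM in aplCoA and 15.8 to 21.2 in pplCoA) and the VLMC markers (4.34 to 7.72 CPM in aplCoA and 8.82 to 20.6 in pplCoA) were apart. The count in Slc17a7-only nuclei was 0 without aplCoA replicate 1 or 2 or pplCoA replicate 2 or 3, and 9 without pplCoA replicate 1. These refit counts are given without the share over all genes and are not read as particular to the members.

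Within single clusters, an analysis chosen after the values were seen, the domain difference could be fitted in the 5 clusters with at least 20 nuclei in every replicate. In all 5 Slc17a7 exceeded Slc17a6. Clusters 2, 4, 13 and 14, where Slc17a6 exceeded Slc17a7, could not be fitted, nor could cluster 7, highest for Cdh13. The fits therefore do not cover clusters rich in Slc17a6. In cluster 8, 6 of 23 members passed (background 3.24% of 11448 genes) and in cluster 5, 2 of 21 (background 0.776%). In clusters 1, 3 and 10 edgeR called no member, and 0.265%, 0.078% and 0.0171% of all genes. There 11, 10 and 5 of 21, 22 and 22 members (52.4%, 45.5% and 22.7%) had an unadjusted p under 0.05, against 16%, 12.3% and 5.95% of all genes. Cdh8 was lower in aplCoA in all 5 clusters, from -0.92 to -0.37 on the log2 scale, and passed in cluster 8 (-0.92 ± 0.18, adjusted p = 0.00927). Pcdh15 passed there in the direction opposite to that in all glutamatergic neurons: its log2 difference was -0.65 ± 0.14 (adjusted p = 0.0129), and in clusters 1, 3 and 10 it was -0.54 ± 0.16, -0.49 ± 0.16 and -0.15 ± 0.18. In cluster 5 it was 0.44 ± 0.20, in the direction of all glutamatergic neurons, and none of these 4 passed. Cdh20 (cluster 8, 0.98 ± 0.21, adjusted p = 0.0149) kept its direction in all 5 clusters, as did Cdh13 and Pcdh9, the latter passing in cluster 5 (-0.80 ± 0.15, adjusted p = 0.0398). Cdh11, higher in aplCoA over all glutamatergic neurons, was at or below 0 in all 5 clusters, from -0.96 to -0.00282, and passed in none. Cdh6 could be tested in 3 of the clusters and passed in none, at 0.09 ± 0.32, -0.23 ± 0.34 and -1.39 ± 0.44 in clusters 3, 8 and 10. Its domain means there were low, from 3.43 to 11.3 CPM. Cdh12 was -0.72 ± 0.13 in cluster 5 (adjusted p = 0.0395) and 1.00 ± 0.22 in cluster 3 (adjusted p = 0.0867). The rest of cluster 8's calls were Cdh18 (0.60 ± 0.14) and Cdh7 (0.68 ± 0.17), higher, and Cdh4 (-0.68 ± 0.17), lower in aplCoA.

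**Figure D5:**
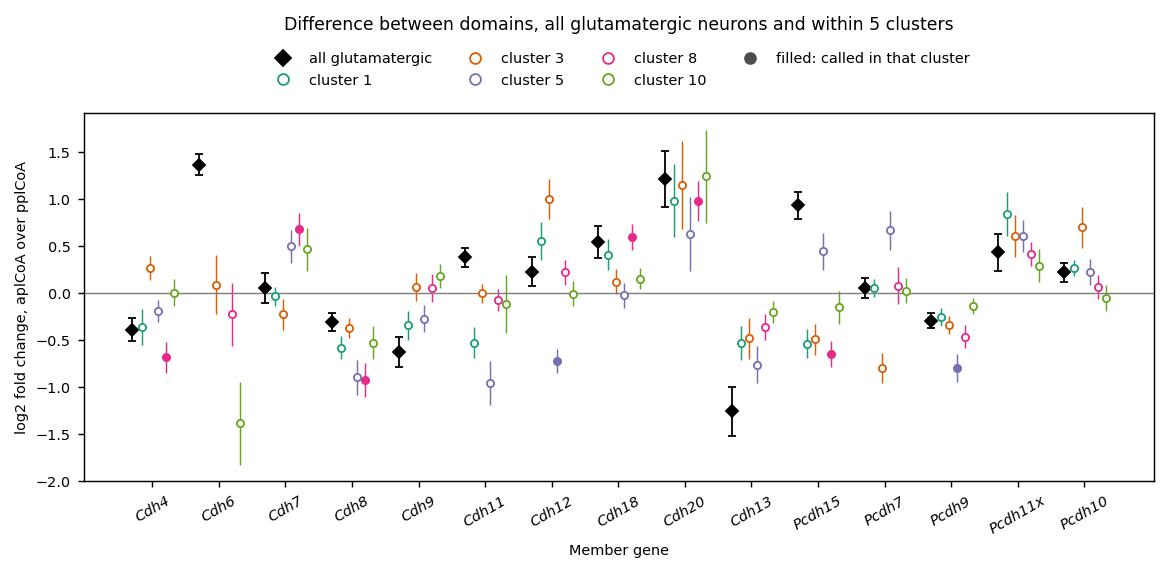
Log2 fold change of aplCoA over pplCoA with its standard error for 15 members, in all glutamatergic neurons (black diamonds) and within 5 clusters (coloured circles, filled where the adjusted p was under 0.05). Slc17a7 exceeded Slc17a6 in all 5 clusters. Pcdh15 lies at 0.93 for all neurons and below 0 in 4 of the 5 clusters, whereas Cdh20 lies above 0 and Cdh8 and Cdh13 below 0 in each.

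In GABAergic neurons Cdh18 and Cdh9 were higher and Pcdh9 lower in aplCoA. These were the 3 of 23 members that passed (background 8.79% of 10819 genes). Cdh18 read 384, 497 and 416 CPM in aplCoA and 343, 246 and 217 CPM in pplCoA (log2 0.62 ± 0.14, adjusted p = 0.0123) and Cdh9 184, 192 and 198 CPM in aplCoA and 138, 116 and 143 CPM in pplCoA (0.47 ± 0.09, adjusted p = 0.00557), both without overlap and higher in aplCoA. Pcdh9 was lower in aplCoA (3226, 3324 and 3362 CPM in aplCoA and 3822, 4071 and 4119 CPM in pplCoA; -0.33 ± 0.07, adjusted p = 0.0101). At an adjusted p under 0.05 Cdh9 passed in every refit. Cdh18 failed by DESeq2, without pplCoA replicate 2 and with library 1 of aplCoA replicate 1 alone, and Pcdh9 failed without pplCoA replicate 2 or 3. None of the 3 met an adjusted p under 0.01 with a 1.5-fold difference. In these nuclei 5 of 13 marker lists were apart between the domains. The class's own markers summed to 1240.3 to 1300.3 CPM in aplCoA and 1077 to 1090.0 in pplCoA, and the OPC markers to 722 to 802 CPM in aplCoA and 834 to 912 in pplCoA. The astrocyte markers summed to 196 to 236 CPM in aplCoA and 177 to 195 in pplCoA, the mural markers to 16.5 to 19.5 CPM in aplCoA and 24.0 to 31.1 in pplCoA and the VLMC markers to 4.54 to 6.27 CPM in aplCoA and 1.01 to 4.32 in pplCoA. GABAergic clusters also differed in the share of their nuclei from aplCoA, which was 43.7% in the Vip and 63.2% in the Adarb2 cluster. In that order Cdh9 was at 21.9 and 188 CPM, Cdh18 at 27.0 and 696 CPM, and Pcdh9 at 1396 and 2458 CPM. The part of these marker lists and of the make-up in the 3 calls was not tested.

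The difference between the neuron classes was tested as an interaction. Of the 21 members in at least 5% of nuclei of both classes 4 passed, against 4.43% of all such genes. Cdh9 was lower in aplCoA in glutamatergic and higher in GABAergic neurons (interaction -1.04 ± 0.18, adjusted p = 0.0146). Pcdh15 (0.98 ± 0.12) and Cdh20 (1.27 ± 0.25) were more anterior, and Cdh13 (-0.95 ± 0.22) more posterior, in glutamatergic than in GABAergic neurons. Cdh6 read 6.92, 10.7 and 8.10 CPM in aplCoA and 8.09, 4.4 and 4.44 CPM in pplCoA for GABAergic neurons and entered the interaction fit through glutamatergic neurons alone, so its value there is not given. With Cdh6 the count was 5 of 22 (background 4.57%). The GABAergic count was 8 without pplCoA replicate 1, where 1013 of 10817 genes were called, and 1 without pplCoA replicate 2, where 337 of 10895 were. The interaction count with Cdh6 was 1, 3 and 1 without aplCoA replicates 1, 2 and 3 and 8, 2 and 2 without pplCoA replicates 1, 2 and 3, and Pcdh15 passed in each. These interaction counts are given without the share over all genes and are not read as particular to the members. At an adjusted p under 0.05, Cdh13 did not pass in 6 refits, Cdh20 in 5 and Cdh9 in 3. At an adjusted p under 0.01 with a 1.5-fold difference Pcdh15 passed and these 3 did not. The part of the make-up of either neuron class in these interactions was not tested.

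Outside neurons few members differed between domains. In astrocytes 1 of 16 passed (background 0.573%): Cdh4 read 163, 106 and 143 CPM in aplCoA and 221, 308 and 328 CPM in pplCoA (log2 -1.08 ± 0.19, adjusted p = 0.0466), without overlap. The 3 neuronal markers summed to 68.3 to 161 CPM in aplCoA and 54.4 to 123 in pplCoA astrocytes, which overlapped. In barcodes with under 100 UMIs, which hold free RNA, Cdh4 was at 125 to 195 CPM in aplCoA and 172 to 253 in pplCoA, which overlapped. The astrocyte markers themselves were apart, at 11461 to 13202 CPM in aplCoA and 13206 to 14208 in pplCoA. The part of these in the Cdh4 difference was not tested. In OPCs Pcdh20, a protocadherin outside the delta groups, passed alone of 20 (background 5.4%), at 19.8, 21.6 and 22.7 CPM in aplCoA and 11.2, 13.4 and 12.4 CPM in pplCoA (0.76 ± 0.20, adjusted p = 0.028), from 256 UMIs. Pcdh20 did not pass when any one replicate was left out, by DESeq2 or with predicted doublets kept. In OPCs 3 of 13 marker lists were apart: the NFOL markers summed to 865 to 930.1 CPM in aplCoA and 672 to 781 in pplCoA, the astrocyte markers to 621 to 654 CPM in aplCoA and 664 to 713 in pplCoA and the endothelial markers to 4.23 to 5.09 CPM in aplCoA and 5.51 to 7.70 in pplCoA. Their part in the Pcdh20 difference was not tested. In MOLs 2 of 13 passed (background 1.84%), both lower in aplCoA. Pcdh17 read 119.7, 102 and 129.6 CPM in aplCoA and 180.2, 293 and 272 CPM in pplCoA (-1.04 ± 0.18, adjusted p = 0.00175) and Pcdh7 382, 303 and 279.5 CPM in aplCoA and 438, 535 and 675 CPM in pplCoA (-0.75 ± 0.16, adjusted p = 0.0101), neither with overlap. Both genes were highest in NFOLs within the lineage. The 5 NFOL markers summed to 710.1 to 804 CPM in aplCoA MOLs and 594 to 868 in pplCoA MOLs, which overlapped, and the ABC markers, the one list apart there, to 8.72 to 11.3 CPM in aplCoA and 4.83 to 5.37 in pplCoA. The part of NFOLs or of other cells' RNA in the Pcdh17 and Pcdh7 differences was not tested. Over all non-neuronal classes tested, the calls numbered 4, but 1 without aplCoA replicate 2, pplCoA replicate 2 or pplCoA replicate 3, and 0 when predicted doublets were kept. The call left without pplCoA replicate 2 was none of these 4, which all failed there. Cdh4 in astrocytes failed in 4 of the 6 refits without a replicate, Pcdh7 in MOLs in 3 and Pcdh17 in 1. No member passed by edgeR in NFOLs, microglia, VLMCs or ABCs, where 0%, 0%, 0.0121% and 0% of all genes did. Members with an unadjusted p under 0.05 numbered 2, 0, 2 and 4 of 18, 4, 9 and 11 tested there, against 8.45%, 4.43%, 6.88% and 6.45% of all genes. The lowest p was that of Pcdh9 in ABCs, at 437, 807 and 535 CPM in aplCoA and 119, 345 and 114 CPM in pplCoA (1.66 ± 0.34, adjusted p = 0.22).

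The genes that cadherins bind and their relatives were read in the same tests. Of 18 catenins and WAVE complex genes, 17 were tested in glutamatergic neurons and edgeR called 0 (background 20.1%), with 3 at an unadjusted p under 0.05, where 33.5% of all genes had one. Of 12 other cadherin superfamily genes (Fat, Dchs, Celsr and Clstn) 10 were tested and 2 passed (6 at an unadjusted p), Fat4 lower at -0.84 ± 0.16 (adjusted p = 0.0099) and Dchs2 higher in aplCoA at 0.43 ± 0.09 (adjusted p = 0.0115). In GABAergic neurons 1 of 17 adaptors passed, Ctnna3, an alpha-catenin, at -0.68 ± 0.12 (adjusted p = 0.00581), and 1 of 10 superfamily genes, Fat3, at 0.78 ± 0.15 (adjusted p = 0.00691), against 8.79% of all genes. Between Slc17a6-only and Slc17a7-only nuclei, 5 adaptors were higher and 7 lower of 17 tested, against 45.5% of all genes in either direction. Those higher were the catenin genes Ctnna1, Ctnna2, Ctnna3 and Ctnnd2 and the related Pkp4, and those lower were Ctnnd1 and the WAVE complex genes Nckap1, Cyfip1, Cyfip2, Wasf1, Abi1 and Abi2. The superfamily list had 5 higher and 2 lower of 10. Over both lists the differences were widest for Fat1 at -1.87 ± 0.14 (adjusted p = 7.32e-07), Wasf1 of the WAVE complex at -1.42 ± 0.10 (adjusted p = 3.28e-07), Fat4 at -1.02 ± 0.09 (adjusted p = 1.49e-06) and Clstn2 at 0.74 ± 0.13 (adjusted p = 0.000599). Between glutamatergic and GABAergic neurons 11 adaptors were higher and 5 lower in glutamatergic neurons of 17, and 5 and 3 of 10 superfamily genes, against 70.9% of all genes. The widest there were Wasf1 at 1.44 ± 0.06 (adjusted p = 6.39e-08), Fat3 at 1.43 ± 0.18 (adjusted p = 8.08e-05), Clstn3 at -1.07 ± 0.06 (adjusted p = 3.13e-07) and Dchs1 at -0.90 ± 0.08 (adjusted p = 5.58e-06). Between OPCs and MOLs, of the partner genes in at least 5% of nuclei of both classes, 9 adaptors were higher and 2 lower in OPCs of 15, and 2 of 3 superfamily genes were higher, against 59.3% of all such genes. Ctnnd2, a delta-catenin, was at 3.53 ± 0.09 (adjusted p = 2.23e-25). Between VLMCs and ABCs, counted in the same way, 3 adaptors were higher and 9 lower in VLMCs of 16, with 1 and 1 of 4 superfamily genes, against 40.2% of all such genes. Ctnnd2 was at -3.07 ± 0.15 (adjusted p = 2.34e-13), Abi1 at -1.92 ± 0.12 (adjusted p = 1.22e-11) and Cyfip2 at -1.24 ± 0.11 (adjusted p = 4.60e-09). Between domains in OPCs, 1 of 17 adaptors passed, Ctnna3, at -0.42 ± 0.10 (adjusted p = 0.0121), against 5.4% of all genes.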

How the data were processed

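Single-nucleus RNA was measured by 10x 3' droplet sequencing. The authors aligned reads with Cell Ranger (5.0.0 in the submitters' processing notes) to mm10, introns included, and deposited raw UMI counts per gene and barcode. From these, barcodes with at least 1000 genes were kept, UMI totals over 5 median absolute deviations above the median, outlying mitochondrial or ribosomal shares and predicted doublets (Scrublet, 4120 barcodes) were removed, and nuclei were clustered (scanpy 1.11.5, 5000 variable genes with the members left out, Leiden resolution 1). Deposited library totals set precision, and intervals would cover counting error only.

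Counts were summed per replicate and class and tested with edgeR 4.0.16 (R 4.3.3; quasi-likelihood, TMM, Benjamini-Hochberg over all genes seen in at least 5% of nuclei, averaged over both classes where classes were compared), aplCoA against pplCoA without a block and classes of one pool with the pool as a block. Classes with fewer than 20 nuclei in a replicate (macrophages, mural and endothelial cells) were not tested. The script recovered known changes in simulated counts. DESeq2 1.42.0, other filters, scalings and left-out replicates were the alternatives.

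Members passing a test were named by size, up to 12 per comparison, with the 5 highest per class. Members and lists were chosen with earlier results of these data known.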

Additional observations from a re-analysis of the deposited data

Results flagged for a closer look

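For 4 of the 21 members seen in at least 5% of nuclei of both classes, the difference between aplCoA and pplCoA differed in glutamatergic and GABAergic neurons, by edgeR's interaction test over 6 pools. Of all such genes 4.43% passed. Cdh9 was opposite in sign, with a log2 difference of -0.63 in glutamatergic and 0.47 in GABAergic neurons, so that the difference between them was -1.04 ± 0.18 (adjusted p = 0.0146). At an adjusted p under 0.05 it did not pass in 3 refits. Pcdh15 had 0.93 in glutamatergic and 0.00475 in GABAergic neurons, a difference of 0.98 ± 0.12 (adjusted p = 0.00266), and passed in each refit. Cdh20 had 1.21 in glutamatergic and 0.04 in GABAergic neurons (1.27 ± 0.25, adjusted p = 0.0219) and did not pass in 5 refits. Cdh13 had -1.26 in glutamatergic and -0.25 in GABAergic neurons (-0.95 ± 0.22, adjusted p = 0.0408) and did not pass in 6 refits. At an adjusted p under 0.01 with a 1.5-fold difference only Pcdh15 of these 4 passed. In Slc17a7-only nuclei its domain difference was -0.07, and it was below 0 in 4 of the 5 glutamatergic clusters fitted. Every refit used sums over whole neuron classes, and the make-up of the glutamatergic neurons differed between the domains. The part of make-up in these 4 differences was not tested.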

How the results depend on the processing

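The 80 member calls of the class, transporter, domain and interaction tests were read again under 13 to 18 settings each, which gave 1239 values. None changed direction, and 126 no longer passed an adjusted p under 0.05 or no longer tested the gene. The stricter threshold was counted as a setting but reused the main fit, so it could lose or reverse no call. The settings share most counts, and these members were chosen because they passed, so a kept direction is no separate support. Fits within single glutamatergic clusters are not among them, and there Pcdh15 passed in the opposite direction in cluster 8 and Cdh11 was at or below 0 in each of the 5. The counts of members called between glutamatergic and GABAergic neurons (21) and between OPCs and MOLs (16) stayed within 1.5 times their value under each alternative run. The count between VLMCs and ABCs (7) was 11 when genes in at least 1% of nuclei were tested, and that between transporter kinds (13) was 7 in pplCoA alone. Domain counts moved more. Leaving out 1 replicate gave 2 to 11 calls in glutamatergic neurons (main 7), 1 to 8 in GABAergic neurons (main 3), 1 to 4 in non-neuronal classes (main 4), 0 to 9 in Slc17a7-only nuclei (main 4) and 1 to 8 in the interaction (main 5). An adjusted p under 0.01 with a 1.5-fold change left 2, 0, 1, 0 and 1 in the same order. Leaving out 1 replicate also moved the calls over all genes, from 941 to 2854 in glutamatergic neurons (main 2359) and from 337 to 1013 in GABAergic neurons (main 951). Where no such share is printed the counts are given without it, and none is read as particular to the members. The likelihood ratio test gave 5 in GABAergic neurons, where it called 1264 of 10819 genes against 951 in the main fit. It gave 7 in Slc17a7-only nuclei and 10 in the interaction, and DESeq2 gave 8 in Slc17a7-only nuclei. Without doublet removal the non-neuronal count was 0 and the interaction count 3. In non-neuronal classes it was 2 with a filter at 10% of nuclei, 2 with that filter in either domain, and 1 with library 1 of aplCoA replicate 1 alone, which gave 2 in Slc17a7-only nuclei. Fits chosen after the data were seen gave 0, 0, 2, 6 and 0 calls within glutamatergic clusters 1, 3, 5, 8 and 10 and 0 in Slc17a6-only nuclei. The cause was not tested in any of these. The difference in members per nucleus (0.149) kept its sign and ranged from 0.0423 to 0.24.

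The sample titles give same-numbered aplCoA and pplCoA replicates only a number in common and do not say whether they shared mice or a batch. Their deviations from the domain means over genes in glutamatergic neurons correlated at 0.0916, -0.0492 and 0.119, and not every replicate correlated best with its own number. These correlations cannot decide whether mice or a batch were shared. With the replicate block the calls between domains were 7 in glutamatergic neurons, 3 in GABAergic neurons, 6 in non-neuronal classes and 2 in Slc17a7-only nuclei. Pcdh9 no longer passed in glutamatergic neurons although the count stayed at 7, and Pcdh9 and Pcdh10 no longer passed in Slc17a7-only nuclei. Paired by number, a fit chosen after the data were seen, the difference in members per nucleus was 0.149. Without the replicate block the tests between kinds of nuclei gave 11 (transporter kinds), 20 (neuron classes), 16 (OPCs against MOLs) and 7 (VLMCs against ABCs). Depth limits low members: genes under 5% of nuclei, and Slc17a6-only nuclei of pplCoA replicates 2 and 3, carry few UMIs.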

Other observations

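Classes too small for a test are given as values. In 38 mural nuclei Pcdh18, a delta-2 protocadherin under 10 CPM in every tested class, was at 119 CPM as the mean of replicates, from 13 UMIs. In 261 macrophages Cdh23 was at 77.1 CPM, against 377 CPM in microglia.

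Of the 171 member pairs, 30 were found together more often than their single shares predict in all 6 replicates and 28 less often. With the expectation taken within clusters, the ratio ran from 0.894 to 1.23, with a median of 1.00.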
